A study of Mus musculus with 2 samples.

Results

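The Zfhx3 locus is described here by its peaks of 5-hydroxymethylcytosine (5hmC), the base that TET enzymes make by oxidising 5-methylcytosine, in mouse embryonic fibroblasts (MEFs) at passage 5 and at passage 0. The members are all deposited peaks that share at least 1 base with bases 111230000 to 111495000 of chromosome 8 (mm9). They are 4 of the 6726 passage 5 peaks and 66 of the 60157 passage 0 peaks. The locus was chosen by its passage 0 peak numbers, since the 1 Mb window around it, bases 111000001 to 112000000, is among the 5 windows with the most passage 0 peaks. The passage 0 density is therefore a description of what was chosen, and no test is attached to it.

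The MEFs of both groups came from C57BL/6 embryos at day 13.5 after mating and grew in high-glucose DMEM with fetal calf serum. One group was harvested at passage 5 and the other at passage 0, with 1 library each. The labels name no other treatment or allele. They do not give the number or sex of the embryos, or say whether both harvests came from one culture. Fragments carrying 5hmC were captured by a GLIB kit, which adds a glucose and a biotin to the hydroxymethyl group, and were sequenced. Peak lists of genomic DNA hold no expression markers, so the labelled cell type was not checked. The signal is a sum over many cells, and fewer cells carrying 5hmC cannot be told apart from less 5hmC in each cell.

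Zfhx3, also called Atbf1, encodes a very large transcription factor with many zinc fingers and several homeodomains. The human protein was first known for binding an AT-rich enhancer element of the alpha-fetoprotein gene. In mice, a Zfhx3 mutation named short circuit alters the circadian rhythm. 5hmC is commonly found along gene bodies and at enhancers, and it is known to depend on the cell type. The interval's borders are those of the rule and were not drawn from an mm9 annotation. The interval need not hold every Zfhx3 transcript, and no exon, intron or promoter is assigned to a peak. By order along the chromosome in the RefSeq gene table of GRCm38.p6, the neighbouring protein-coding genes are Psmd7, a proteasome subunit gene, and Pmfbp1. Their distances from the interval are not given here, and they need not adjoin it.

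At passage 5 the interval held 4 widely separated peaks, and at passage 0 it was lined with peaks from end to end. The 4 passage 5 peaks covered 2409 bases, or 0.909% of the interval. The 66 passage 0 peaks covered 79262 bases, or 29.9%. Relative to passage 0, the number of peaks at passage 5 was 6.06%, with a 95% exact (Clopper-Pearson) counting interval of 1.60% to 16.3%. On the 19 autosomes together it was 11.2% (10.9% to 11.4%), which lies inside the interval of the locus. The locus was chosen through its passage 0 number, which divides this ratio, and that choice by itself can lower the ratio. The autosomes were not chosen in that way, so the ratios are not a like comparison. The same holds for the covered lengths that follow. The covered length at passage 5 was 3.04% of that at passage 0 in the locus, and 6.81% on the autosomes. The mean peak width in the locus was 602 bp at passage 5 and 1201 bp at passage 0, so fewer and narrower peaks both entered the covered length. On the autosomes the mean widths were 576 bp at passage 5 and 944 bp at passage 0. There was no replicate of either passage, the read depth of both libraries is unknown, and the intervals cover counting error only. A difference in depth between the libraries cannot be told apart from a difference in 5hmC.

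**Figure D1:**
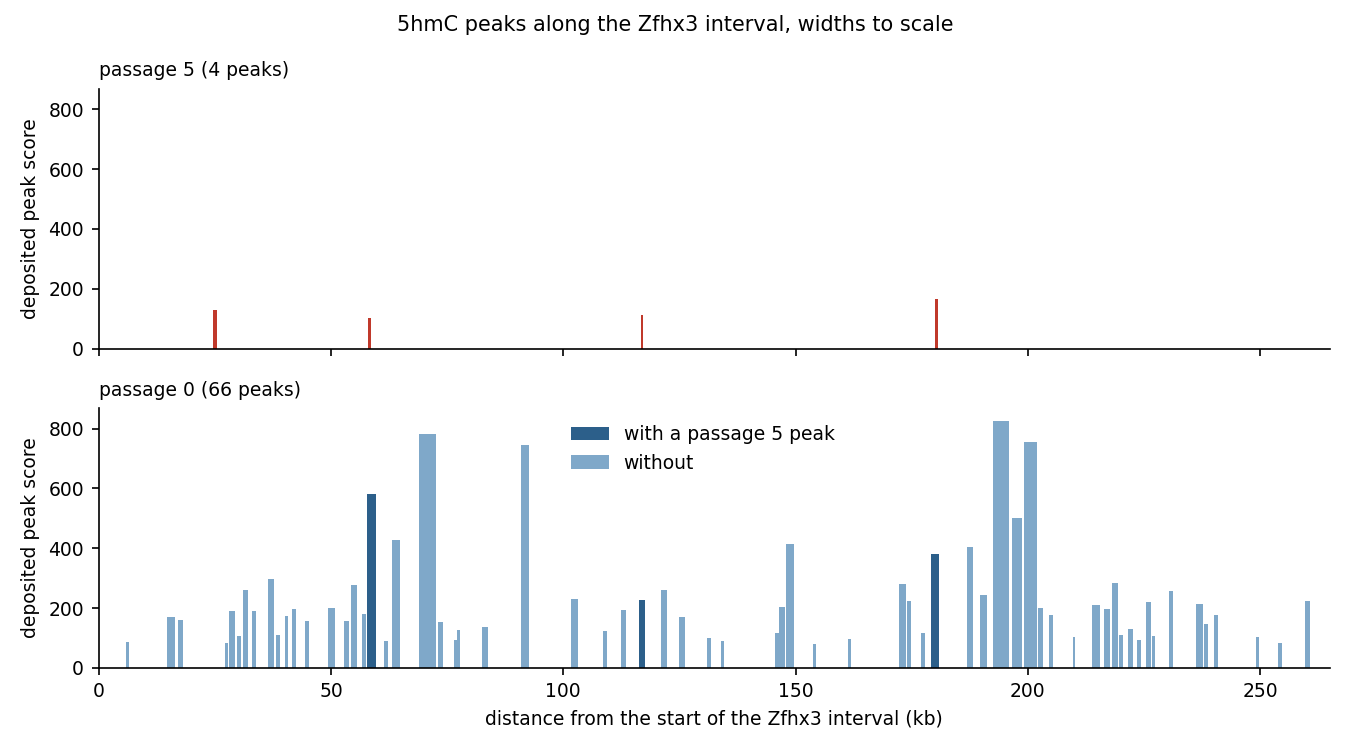
Each bar is a deposited 5hmC peak of the Zfhx3 interval, drawn at its distance from the interval's start (kb) with its width to scale and its deposited score as height, for passage 5 (above, 4 peaks) and passage 0 (below, 66 peaks). Dark blue bars are the 3 passage 0 peaks that share a base with a passage 5 peak, and the 4 tallest passage 0 bars are not among them. Scores are the authors' own for each list, and heights are not to be compared between the panels.

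The density of peaks in the locus was 15.1 per Mb at passage 5 against 249 per Mb at passage 0. On the autosomes it was 2.80 per Mb at passage 5 against 25.1 per Mb at passage 0. The locus was thus 5.40 times as dense as the autosomes at passage 5, a number that rests on 4 peaks, and 9.93 times as dense at passage 0.

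The 4 passage 5 peaks were 467 to 721 bp wide, with a median of 610.5 bp against 563 bp for the whole passage 5 list. The first lay at chr8:111254681-111255401, 25.04 kb from the start of the interval, with a width of 721 bp and a score of 129. It was the only one without a passage 0 peak, and the nearest passage 0 peak began 1.86 kb further on. The second lay at chr8:111287993-111288586, with a width of 594 bp and a score of 101. The third lay at chr8:111346760-111347226, with a width of 467 bp and a score of 112.1. The fourth lay at chr8:111410024-111410650, with a width of 627 bp and a score of 165. The fourth had the highest of the 4 scores and ranked above most of its list, with 84.8% of all passage 5 peaks at or below it. That value was 63.4% for the first peak, 26.0% for the second and 44.0% for the third. The distances between neighbours were 32.6, 58.2 and 62.8 kb.

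Of these 4 peaks, 3 lay wholly inside 1 passage 0 peak each. This is 75% with an exact interval of 19.4% to 99.4%, against a background of 69.9% over the whole passage 5 list, so the share is close to that of the list. The second passage 5 peak lay inside a passage 0 peak at chr8:111287817-111289802, which had a score of 580 and the fifth highest score of the 66. It took up 29.9% of that peak and its midpoint was displaced by 520 bases toward the peak's start. The third lay inside chr8:111346354-111347588, a passage 0 peak with a score of 227 that ranked 20 of 66. It was nearly central there, with midpoints 22 bases apart, and took up 37.8% of the peak. The fourth lay inside chr8:111409122-111410791, a passage 0 peak with a score of 379 that ranked 10 of 66. It took up 37.5% of the peak and ended 141 bases before the peak's end. In these 3 places most of the length covered at passage 0 was therefore outside the passage 5 peak. Peaks were narrower at passage 5 in the whole lists as well, with mean widths of 578 bp at passage 5 and 944 bp at passage 0.

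In the other direction, 3 of the 66 passage 0 peaks of the locus shared a base with a passage 5 peak. This is 4.55% (exact interval 0.947% to 12.7%), against a background of 7.63% over the whole passage 0 list. The background lies inside the interval, and the locus could not be set apart from the list at this number of peaks. The interval also treats these neighbouring peaks of 1 library as independent. The remaining 63 peaks had no called passage 5 peak, which without reads does not show that 5hmC was absent there.

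Of the 6 passage 0 peaks of the locus with a score of at least 500, 1 had a passage 5 peak. That is 16.7% (exact interval 0.421% to 64.1%), against a background of 37.4% among all passage 0 peaks with such scores, which lies inside the interval. The highest score, 826, belonged to chr8:111422551-111425936, a peak of 3386 bp which lay 11.9 kb from any passage 5 peak. Second came chr8:111298917-111302557, with a score of 782 and the greatest width in the locus, 3641 bp. It lay 10.3 kb from the nearest passage 5 peak. The third was chr8:111429115-111432031, with a score of 756 and a width of 2917 bp. The fourth was chr8:111320819-111322719, with a score of 744 and a width of 1901 bp, 24.0 kb from the nearest passage 5 peak. The fifth, with a score of 580 and 1986 bp, is the one described above that held a passage 5 peak, and it was also the fifth widest. The fourth widest was chr8:111426659-111428671, with 2013 bp and a score of 501. All of these 6 peaks were among the highest 2% of the passage 0 list by score.

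The passage 0 peaks of the locus scored higher and were wider than those of the list as a whole. Their scores ran from 81.2 to 826 with a median of 185 (quartiles 115 and 254), and the median of the list was 129. Their widths ran from 527 to 3641 bp with a median of 1052 bp, and the median of the list was 850 bp. At or above the list's median lay 46 of the 66 by score, and 46 by width. Scores of at least 500 were reached by 6 of the 66, or 9.09%, against 1.96% of autosomal peaks. Score and width went together among the 66 peaks, with a Spearman correlation of 0.85, and in the whole list it was 0.79. Both come from the same reads of 1 library.

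**Figure D2:**
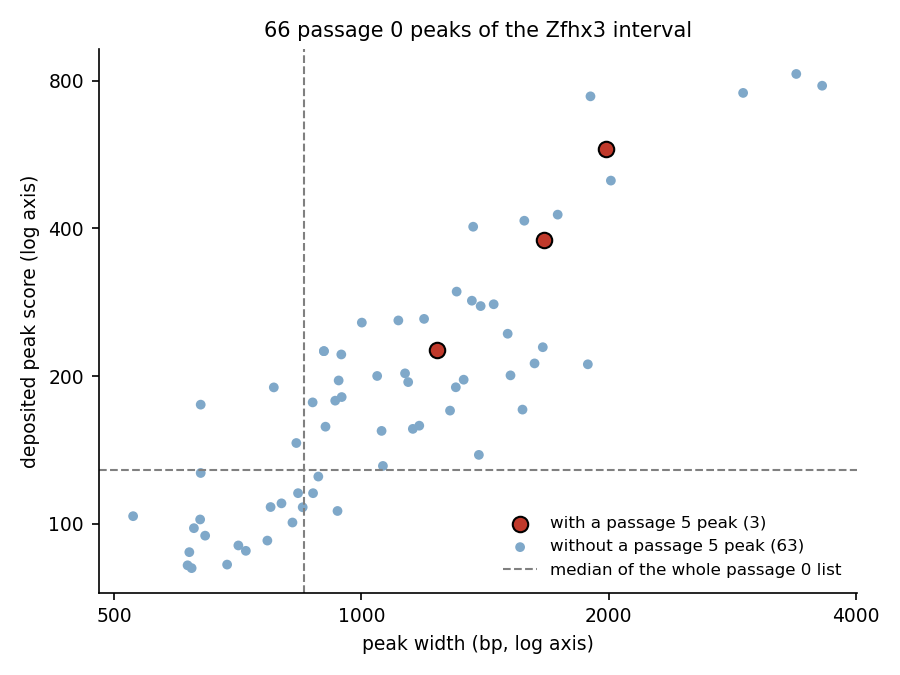
Width (bp, log axis) and deposited score (log axis) of the 66 passage 0 peaks of the Zfhx3 interval, with the medians of the whole passage 0 list as dashed lines (850 bp and 129). The 3 peaks with a passage 5 peak (red) have scores of 227, 379 and 580 and lie above both medians, amid other peaks without one (light blue).

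Because passage 0 peaks of higher score had a passage 5 peak more often in the list as a whole, the locus was also read by score class. The passage 0 list was divided into 10 classes of equal size by score. In the highest class, which began at a score of 290, the locus had 11 peaks, of which 2 had a passage 5 peak. That is 18.2% (2.28% to 51.8%), against a background of 24.4% in this class. In the class below it the locus had 12 peaks and 1 with a partner, and the share over the list was 13.7%. The other 8 classes held 43 peaks of the locus, and 0 of them had a passage 5 peak, which allows a share of up to 6.98% (3 counts of the total, a limit used here for counts of 0 only). The list's shares would give 2.58 such peaks. The limit for counts of 0 is 1-sided and tighter than the 2-sided exact intervals given for other shares, so it is not directly comparable with them. Summed over all 10 classes, the list's shares give 6.92 of the 66 peaks, or 10.5%, and 3 were observed. The value of 10.5% lies inside the exact interval of the locus, so the locus could not be set apart from the list's shares. That interval takes the 66 peaks as independent, although they are neighbours in 1 library, and the lower number was not tested.

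Along the interval, passage 0 peaks were fewer in the middle part than in either outer part, a difference that was not tested. When the interval was divided into 3 equal parts, the first part held 2 passage 5 peaks and 25 passage 0 peaks. The middle part held 1 passage 5 peak and 16 passage 0 peaks, and the last part held 1 passage 5 peak and 25 passage 0 peaks. The covered length at passage 0 was 29483 bases in the first part, 17987 in the middle part and 31792 in the last. Scores did not follow this pattern, since the median passage 0 score was 171 in the first part, 199 in the middle part and 200.1 in the last. The outer parts were not dense throughout. The first 10 kb of the interval was 6.17% covered at passage 0, and the 10 kb that begin 250 kb from its start were 9.33% covered.

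In bins of 10 kb, passage 5 peaks covered bases in 4 of the 27 bins, and passage 0 peaks in all 27. No 10 kb bin was free of passage 0 peaks. The fullest bin at passage 0 began 190 kb from the start of the interval and was 75.1% covered, with 0% at passage 5. It holds the highest-scoring peak of the locus. The bin that begins at 50 kb was 5.94% covered at passage 5 and 62.6% at passage 0. The median bin was 25.5% covered at passage 0, and the 5 fullest bins held 36.0% of all covered bases. The passage 5 peaks lay in bins that were 7.21%, 5.94%, 4.67% and 6.27% covered at passage 5. At passage 0 the same bins were 21.3%, 62.6%, 23.8% and 24.5% covered, so 3 of the 4 lay below the median bin. As many bins lie below a median as above it, so no preference for sparse bins can be read from 4 bins.

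**Figure D3:**
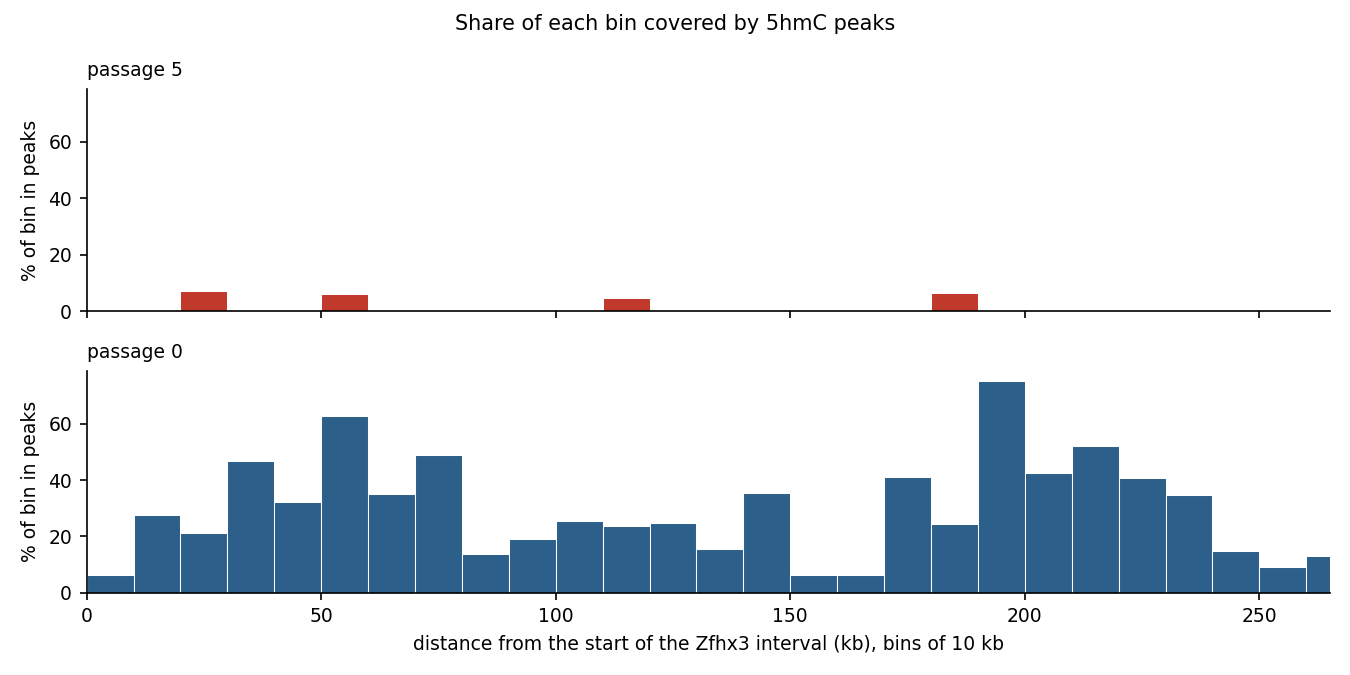
Percent of each 10 kb bin of the Zfhx3 interval covered by 5hmC peaks at passage 5 (above) and passage 0 (below), by distance from the interval's start (kb); the last bin is shorter. At passage 5 only 4 bins are above 0 and none exceeds 7.21%, and at passage 0 all 27 bins are above 0 and the highest reaches 75.1%.

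With gaps of at most 5 kb joined, the passage 0 peaks of the locus fell into 12 runs. Of the 66 peaks, 42 lay in the 2 runs of at least 10 peaks. The longer of these extended from base 111257257 to base 111313862, over 56.6 kb. It held 22 peaks that covered 46.1% of it, with a median score of 178, and 1 of them had a passage 5 peak. The other extended from base 111416937 to base 111470849, over 53.9 kb. It held 20 peaks that covered 50.1% of it, with a median score of 206 and the highest score of the locus, and 0 of the 20 had a passage 5 peak, which by the same limit of 3 counts allows a share of up to 15%. The list's background of 7.63% lies below this limit, so this run could not be set apart from the list. That background is not matched for score, and the run's median score lies above the list's median of 129. With gaps of at most 2 kb no run reached 10 peaks, so the runs are dense series of separate peaks and not unbroken blocks.

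The median gap between neighbouring passage 0 peaks was 1409 bases in the locus and 8615 bases on the autosomes. Of the 65 gaps in the locus, 54 were at most 5 kb, or 83.1%, against 38.2% on the autosomes. The longest gap was 11.1 kb, from base 111364625 to base 111375688. The next longest, 10.5 kb, lay between bases 111391854 and 111402361. The third longest, 9.06 kb between bases 111248196 and 111257256, is where the passage 5 peak without a passage 0 peak lay.

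The interval makes up 26.5% of the 1 Mb window. It held 4 of the window's 6 passage 5 peaks, or 66.7% (22.3% to 95.7%), and 66 of its 127 passage 0 peaks, or 52.0% (42.9% to 60.9%). Of the covered bases in the window, the interval held 70.4% at passage 5 and 57.0% at passage 0. The part of the window before the interval had 0 passage 5 peaks and 24 passage 0 peaks, or 104 per Mb at passage 0. The part after it had 2 passage 5 peaks and 37 passage 0 peaks, or 3.96 and 73.3 per Mb. These flanks were themselves above the autosomal passage 0 density of 25.1 per Mb. In bins of 50 kb, the 4 bins wholly inside the interval held 9 to 17 passage 0 peaks, and the 14 bins wholly outside it held 1 to 7. These ranges do not overlap, but the bins crossing a border held 4 and 13 and are in neither range. The window was chosen for its passage 0 number, so this contrast is a description and was not tested.

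**Figure D4:**
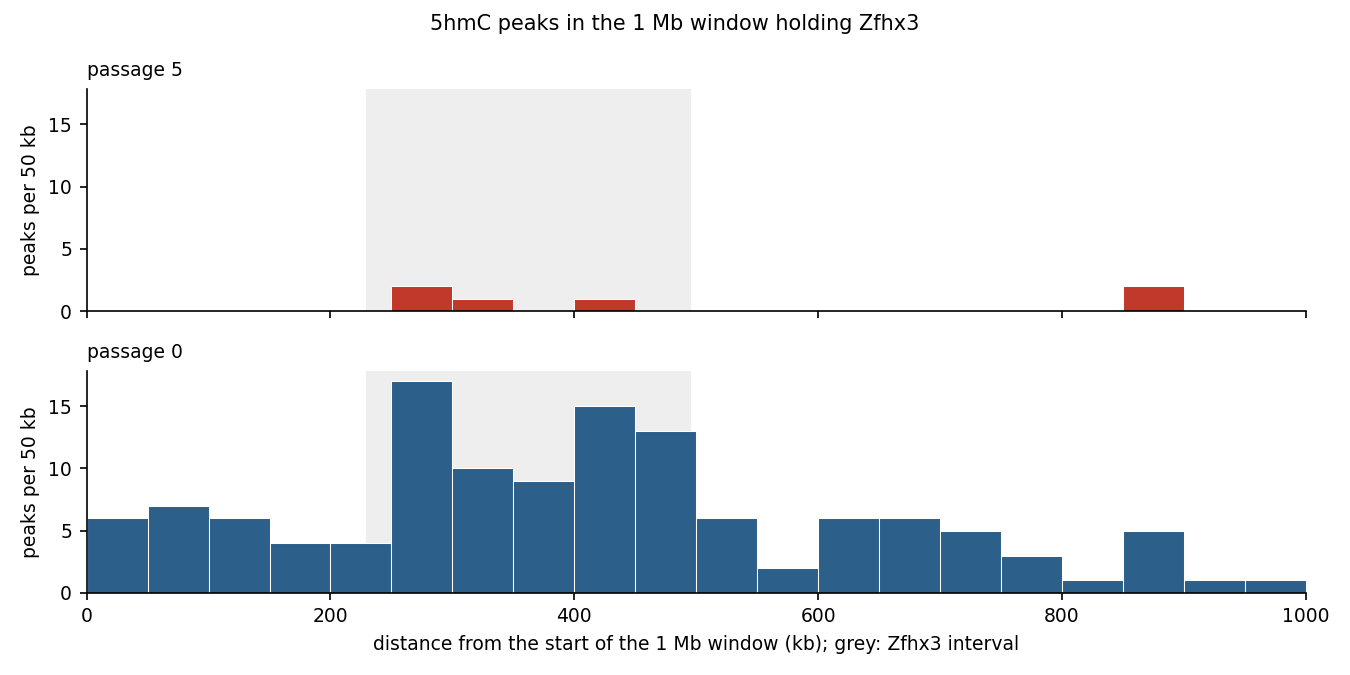
Number of 5hmC peaks per 50 kb along the 1 Mb window at passage 5 (above) and passage 0 (below), by distance from the window's start (kb), with the Zfhx3 interval in grey. The bins wholly inside the grey area hold 9 to 17 passage 0 peaks and those wholly outside 1 to 7; of the 6 passage 5 peaks, 4 lie in the grey area.

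The passage 0 peaks nearest to the borders were as follows. The first inside, chr8:111235983-111236599, had a score of 87.5, and the last outside before it, chr8:111217245-111218192, had a score of 110 and ended 11.8 kb before the border. At the far end the last inside, chr8:111489753-111490652, had a score of 225, and the next outside, chr8:111497347-111498239, had a score of 129 and began 2.35 kb past the border. The peaks therefore did not end at the far border.

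The window ranked 5 by passage 0 peaks, with 127, and the sixth, at 167 to 168 Mb of chromosome 2, held 125. The other windows of the first 5 also held far fewer passage 5 than passage 0 peaks. The Zfhx3 window had 6 passage 5 peaks, which is 4.72% of its passage 0 number. The window at 120 to 121 Mb of chromosome 10 had 6.04%, that at 49 to 50 Mb of chromosome 8 had 4.79%, and those at 166 to 167 Mb and 169 to 170 Mb of chromosome 2 had 3.79% and 2.29%. The sixth window had 24%. All of these were chosen for high passage 0 numbers.

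The locus was also set beside 9312 autosomal tiles of its own length, 265 kb, that do not touch it. As many passage 0 peaks as in the locus, 66, were found in 2 tiles, which had 6 and 3 passage 5 peaks. The locus was chosen through its passage 0 numbers and the tiles lie on a fixed grid, so this count is a description only. The median tile had 0 passage 5 peaks and 3 passage 0 peaks. At least 4 passage 5 peaks, as in the locus, were found in 419 tiles, or 4.5%. The grid began at base 1 of each chromosome, and empty tiles were counted in these medians and this share. Of the 9312 tiles, 6399 held a passage 0 peak and 2815 held no peak of either list. Among the 72 tiles with at least 40 passage 0 peaks, the number of passage 5 peaks was 8.42% of that at passage 0 in the median tile, with quartiles of 4.85% and 11.7%. The 6.06% of the locus lay between these quartiles, with 27 of the 72 tiles below it. The median number of passage 5 peaks in these dense tiles was 4, the same as in the locus.

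**Figure D5:**
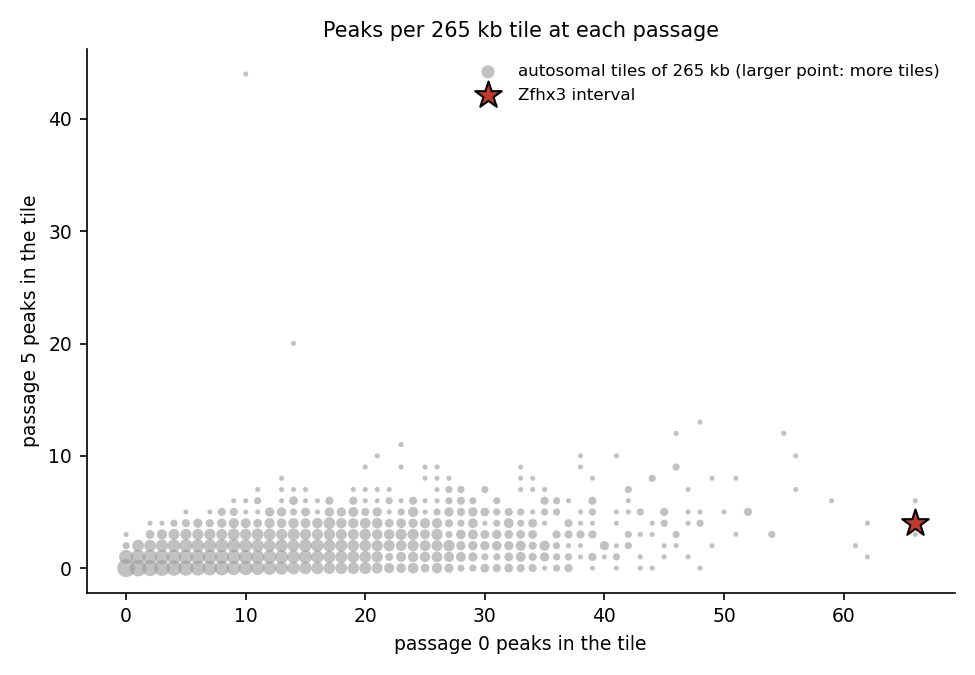
Number of passage 5 peaks against number of passage 0 peaks in 9312 autosomal tiles of 265 kb (grey, larger points for more tiles) and in the Zfhx3 interval (red star, at 4 and 66). The interval, chosen through its passage 0 numbers, lies at the right end of the passage 0 axis and amid the dense tiles on the passage 5 axis.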

How the data were processed

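Build mm9 and the tools MACS 1.4.1, Bowtie 0.12.7 and CASAVA 1.8 are named in the submitters' processing notes, which assign no step to them. The peak names in both lists begin with MACS_peak, so MACS is taken as the peak caller. No source used here gives alignment settings, duplicate handling, input control or peak cutoff. Each of the deposited lists has a score per peak, the authors' own value, whose meaning no header states. Its lowest values were 80.0 (passage 0) and 81.5 (passage 5). Scores were ranked or filtered only within a list. Read depth is unknown.

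Positions were counted from 1. Peaks were partners when they shared at least 1 base, and the counts equalled those of bedtools 2.31.1. Windows and tiles counted peaks by midpoint. Autosome length was the span from first to last peak. Densities, score classes, bins and runs were computed with scipy 1.17.1, pandas 2.3.3 and numpy 2.4.6 under Python 3.11.15. Plots used matplotlib 3.10.9. The overlap step was tested on simulated lists. With 1 library per passage no test between passages was made. Named peaks are all passage 5 peaks and their partners, the 5 highest-scoring and 5 widest passage 0 peaks, and those at the borders. The locus and these rules were chosen with earlier results of these data known, and the tiles were added after the data were seen. No mm9 annotation or genome sequence was used.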

Additional observations from a re-analysis of the deposited data

How the results depend on the processing

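Of 32 recomputed values for 9 results, 30 stayed within set limits. The limits were the exact counting interval for shares and ratios of peak numbers, that of the peak numbers rescaled for covered bases, and 1.5 times the value for the number given by score classes. The other 2 moved. In bins of 5 kb, 84.9% of bins held a passage 0 base, in place of 100% in bins of 10 kb, since smaller bins fall between peaks. With gaps of at most 2 kb, 0% of the passage 0 peaks lay in runs of at least 10, in place of 63.6%. The intervals are wide with 4 passage 5 peaks, so staying within them is no measure of robustness. The number of passage 0 peaks with a partner was 4 within 500 bases and 1 when only peaks above their own list's median score were kept. The number given by score classes ran from 5.10, with classes drawn from dense tiles only, to 7.47 with 20 classes; the settings with dense tiles, joint score and width classes or the locus left out were chosen after seeing the data. With the tile grid shifted by 132.5 kb, also chosen afterwards, 0 tiles reached 66 passage 0 peaks, and the median share in dense tiles was 7.41%. No paired analysis was possible because there was 1 library per passage.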

Other observations

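The 4 passage 5 peaks of the Zfhx3 locus had no other passage 5 peak close by. The passage 5 peak before them ended 1243 kb before the first of the 4, at base 110011248, and the one after them began 477 kb past the last, at base 111887175. Of the 367 gaps between neighbouring passage 5 peaks of chromosome 8, 23 were at least as long as the one before and 55 at least as long as the one after, with a median gap of 87.7 kb. The stretch of 1876 kb between these outer peaks held 118 passage 0 peaks before the interval and 32 after it, none of which had a passage 5 peak by the way the stretch is bounded. This stretch was chosen after its values were seen.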
